A study of Homo sapiens with 30 samples.

Results

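The mRNAs of 10 glycolytic enzymes were followed across all 30 libraries of a granule study in human cells. They were chosen by gene symbol (HK2, GPI, ALDOA, TPI1, GAPDH, PGK1, PGAM1, ENO1, PKM and LDHA) and are 10 of the 60664 genes in the deposited count table. The cells were HEK293, an established human embryonic kidney line, in its Flp-In T-REx form, in which tetracycline switches on a gene placed at a docking site. One derivative carried GFP fused to wild-type TIA1a (WT), an RNA-binding protein of stress granules, and the other carried the GFP-TIA1a variant that causes Welander distal myopathy (WDM), an inherited muscle disease. Each genotype was 1 cell line, so the mutation and other differences between the lines cannot be told apart. Cytosol RNA came from 6 groups: WT and WDM cells untreated, with tetracycline, and with tetracycline plus 0.5 mM sodium arsenite for 60 min. Granule RNA came from 4 groups: WT and WDM cells with tetracycline, without or with the same arsenite treatment. The granule fraction was the high-speed pellet of the lysate captured through the GFP tag, and it was taken from unstressed cells in the same way as from stressed ones. Each group held 3 libraries, and nothing in the labels says whether these were separate cultures, so the p-values measure the spread between libraries, which may be technical.

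Glycolysis turns glucose into pyruvate in the cytosol. Its preparatory steps spend ATP to phosphorylate and split the sugar, and its payoff steps return ATP and NADH, while lactate dehydrogenase regenerates the NAD that the pathway needs. Stress granules are assemblies of RNA and protein that form when translation initiation stops, as it does under arsenite, and long, poorly translated mRNAs are known to collect in them. TIA1 is known to bind U-rich RNA and helps to nucleate these granules.

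The members were described as short, abundant mRNAs that granules exclude. They were chosen with earlier results of these data known, so these counts are no independent test of that description. Most counted members were lower in granules, though still counted there, but not all were. HK2, the counted member with the longest annotated transcript, was higher in granules than in cytosol in 3 of 4 comparisons. PGK1 and GPI also have long annotated transcripts. Counts per gene do not show which transcript of a gene these cells used, so all lengths here are those of the annotation. ALDOA could not be assessed. In the MANE Select transcripts of the GENCODE annotation (release 44, GRCh38), the lengths were 1285 bases for GAPDH, 1351 for TPI1, 1781 for ENO1, 1802 for PGAM1, 2241 for LDHA, 2305 for PKM, 4125 for GPI, 4812 for PGK1 and 5626 for HK2. The median over the 18092 tested genes with a transcript was 2748 bases.

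The preparatory enzymes are encoded by HK2 (hexokinase 2, chromosome 2, 74834127 to 74893359), GPI (glucose-6-phosphate isomerase, chromosome 19, 34359480 to 34402413), ALDOA (aldolase A, chromosome 16, 30064164 to 30070457) and TPI1 (triose-phosphate isomerase, chromosome 12, 6867119 to 6870948), all on the plus strand. The payoff enzymes are encoded by GAPDH (chromosome 12, 6534512 to 6538374, plus strand), PGK1 (phosphoglycerate kinase, chromosome X, 77910739 to 78129295, plus strand) and PGAM1 (phosphoglycerate mutase, chromosome 10, 97426191 to 97433444, plus strand). The later ones are encoded by ENO1 (enolase, chromosome 1, 8861000 to 8879190, minus strand) and PKM (pyruvate kinase, chromosome 15, 72199029 to 72231822, minus strand). LDHA (lactate dehydrogenase A, chromosome 11, 18394560 to 18408425, plus strand) makes lactate. These positions are those of the count table, on GRCh38.

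ALDOA received 34 counts in total, never more than 5 per library, so it passed no filter and 9 of the 10 members were tested. In the annotation, 89.8% of the length of its MANE Select transcript is shared, on the same strand, with a second protein-coding gene, ENSG00000285043, which itself received 1406 counts. How reads in shared exons were assigned is not given in the sources used here, so the ALDOA values say nothing about its level. Of the other members, GPI shares 13.1% of its MANE Select transcript with another gene on the same strand. PGK1 shares none of its MANE Select transcript in this way. It does share 1.78% of its total exon length with ATP7A, which had 0 counts, and loss of PGK1 reads there was not tested. GAPDH lies opposite a long noncoding RNA over 32.8% of its transcript. That RNA had 942 counts against 569020 for GAPDH. The libraries were made with a stranded kit, but whether the counting used the strand is not given. Loss of GAPDH reads in the overlap was not tested. Few counts were assigned to processed copies: the 65 annotated GAPDH copies held between 0.398% and 1.87% of the parent's counts in a library. Such counts do not show how many reads matched both a copy and its parent, or how those were assigned. The 13 PGAM1 copies reached 8.39% in 1 library, with 0.476% of the parent's counts over the cytosol libraries and 3.63% over the granule libraries.

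Because TIA1 binds U-rich RNA, runs of at least 5 T were searched on the sense strand of each MANE Select transcript, each run being counted once at its full length. The longest run of 7 members (the first of equal length), with flanks to 30 bases, is shown with the run in capitals, in DNA letters from 5′ to 3′. All of these lie in 3′ UTRs.
HK2 (chr2:74893026-74893055, plus): gttacacTTTTTTTTTTTTTTTTaaaggta
GPI (chr19:34401021-34401050, plus): cggcccaTTTTTTTTTTTTTTTTgacaact
PGK1 (chrX:78126266-78126295, plus): aaccgtgaTTTTTTTTTTTTTcctgtcata
LDHA (chr11:18407631-18407660, plus): cctagtccaacaTTTTTTcccagtgagtca
PGAM1 (chr10:97432795-97432824, plus): tagtgacttgggTTTTTgcgagtgctttgt
TPI1 (chr12:6870863-6870892, plus): agataatcttccTTTTTgaggcagctatat
ENO1 (chr1:8861112-8861141, minus): cccaagtcattgTTTTTctcgcctcacttt
The long-transcript members HK2 and GPI each hold a run of 16 T and PGK1 a run of 13, while the short-transcript members stop at 5 or 6. GPI had 20 runs (4.85 per kb), PGK1 13 (2.70 per kb), HK2 9 (1.60 per kb), LDHA 5 (2.23 per kb) and PGAM1 2 (1.11 per kb). TPI1 had 1 (0.74 per kb) and ENO1 had 1 (0.56 per kb). GAPDH and PKM had none in these transcripts. Of the 18092 tested transcripts 81.6% held at least 1 run, with a median of 1.60 runs per kb, so the density in HK2 was that of a middling transcript and the density in GPI lay at or above that of 94.5% of them. A run is a string of letters and not a binding site.

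Library totals ran from 7971585 to 18884843 counts in cytosol and from 5906167 to 27419145 in granules, and the granule libraries with arsenite were deeper (18864056 or more) than most of those without. Among the epithelial markers EPCAM, KRT8, KRT18 and KRT19 had group means of 44.5 to 178 CPM in cytosol and CDH1 5.38 to 9.99 CPM. Of the embryonic kidney and neuronal markers NEFL was at 104 to 193 CPM, PAX2 and LHX1 were at 1.41 to 5.12 CPM and NEFM was at or below 0.267 CPM. Among markers of other cells PTPRC and PECAM1 were at or below 0.229 CPM, while the fibroblast collagens COL1A1 and COL3A1 were at 1.75 to 7.79 CPM. CPM, used throughout, is a gene's share of its library scaled to 1e6 reads, with library sizes adjusted by trimmed-mean (TMM) factors. The 4 nuclear RNAs checked summed to 221 to 795 CPM in cytosol and to 2203 to 3590 CPM in granules: NEAT1 and KCNQ1OT1 were higher in every granule library than in every cytosol library, MALAT1 overlapped, and MEG3 had 11 counts in all. The 9 mitochondrial mRNAs checked summed to 1035 to 1895 CPM in cytosol. In granules they summed to 1114 to 4175 CPM without arsenite and to 531 to 1500 CPM with it. The part of these RNAs in the results below was not tested. A CPM is a share of a library, so a lower value cannot separate less RNA per cell from fewer cells contributing, or from more of other RNAs.

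In the cytosol the members covered a wide range of levels per kb of MANE Select transcript. In untreated WT cells GAPDH stood at 1901 ± 70.5 CPM per kb (SD, n = 3) and ENO1 at 1846 ± 91.2, and these did not differ beyond their spread. TPI1 followed at 765 ± 29.3, PKM at 617 ± 40.3, PGAM1 at 283 ± 21.6 (each CPM per kb). Below these came LDHA at 232 ± 1.89, PGK1 at 151 ± 4.56 and GPI at 113 ± 6.97 CPM per kb. HK2 was last at 12.3 ± 0.324 CPM per kb, 154-fold below GAPDH. From TPI1 downward no ranges of neighbours overlapped in untreated WT cells. The same order held in the other cytosol groups, except that GPI stood above PGK1 with overlapping ranges in WDM cells with arsenite. Overlaps between TPI1 and PKM, PGAM1 and LDHA, or PGK1 and GPI appeared in some groups with tetracycline. The order and the folds rest on the length chosen. Per kb of total exon length, tried after seeing the data, GAPDH exceeded ENO1 in untreated WT cells 1.62-fold with no overlap, and HK2 was last at 87.1-fold below GAPDH, against 154-fold on MANE Select length. Over the cytosol groups that fold was 99.3 to 154 on MANE Select length and 56.0 to 87.1 on total exon length.

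In granules the range was narrower. ENO1 had the highest mean per kb of MANE Select transcript in the 4 granule groups, overlapping GAPDH in WDM granules without arsenite. With arsenite ENO1 stood at 339 ± 29.8 CPM per kb in WT granules and at 304 ± 20.5 in WDM granules, above GAPDH at 169 ± 31.0 and 178 ± 17.9 with no overlap. GAPDH overlapped PKM, and PKM overlapped TPI1, in both lines. HK2 was again last, at 23.0 ± 1.51 CPM per kb in WT and 22.4 ± 2.44 in WDM, 14.8-fold and 13.6-fold below ENO1. On total exon length ENO1 and GAPDH overlapped in all 4 granule groups, and GAPDH had the higher mean in WDM granules without arsenite (243 against 216 CPM per kb). HK2 then lay 5.30-fold and 4.87-fold below ENO1 with arsenite, and it overlapped LDHA in both lines. In WT it also overlapped GPI, which was last, while in WDM HK2 had the lowest mean.

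**Figure D1:**
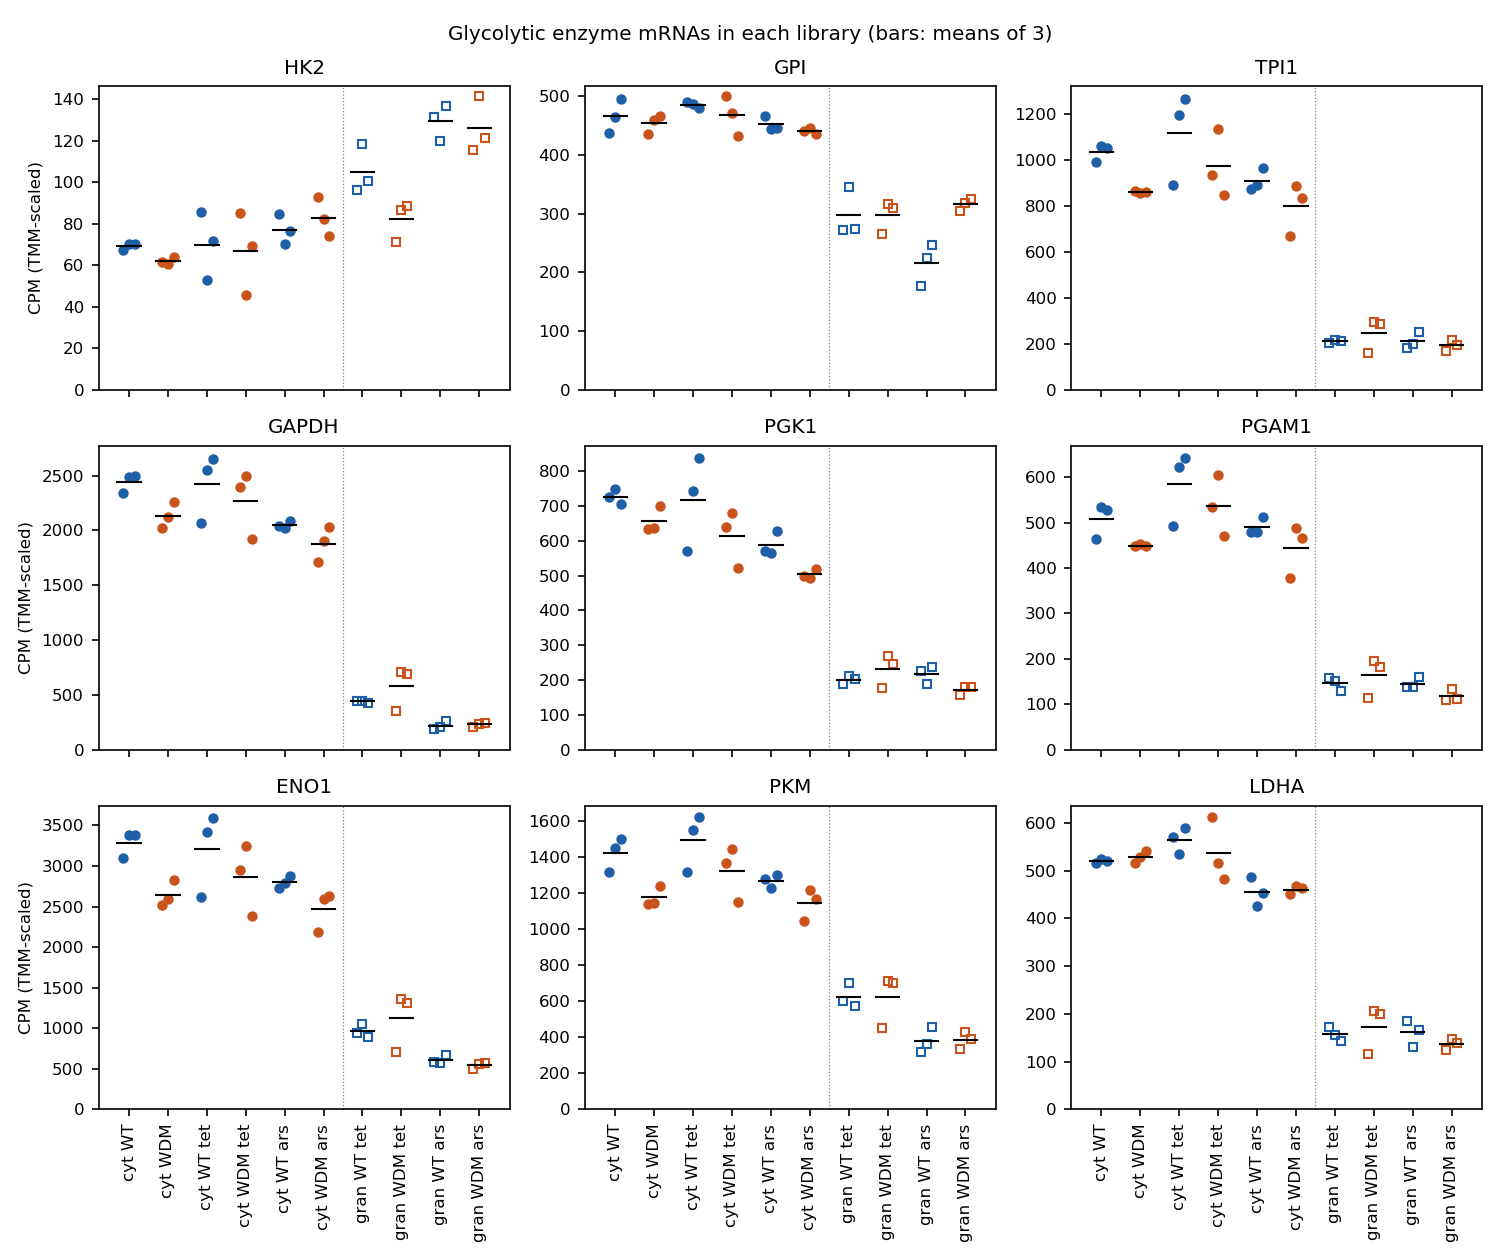
CPM of the 9 counted members in each library, 1 panel per gene, by group (cyt, cytosol; gran, granule; tet, tetracycline; ars, tetracycline and arsenite), each axis starting at 0. Filled circles are cytosol, open squares granule, blue WT and orange WDM, and bars are means of 3; all panels but HK2 fall from cytosol to granule, and the GAPDH mean falls from 2049 to 217 CPM in WT cells with arsenite.

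The first question was how the members divide between granules and cytosol. The enzymes of the payoff steps, TPI1, GPI and LDHA were all lower in granules, with log2 fold changes from -0.52 to -3.24, and HK2 went the other way. In each of the 4 comparisons (WT or WDM, without or with arsenite) 8 of the 9 tested members were called lower (edgeR's quasi-likelihood test, Benjamini-Hochberg adjusted p under 0.05 over all genes tested). HK2 was called higher in 3 of the 4. Over all 18141 genes tested, 36.2% were called lower and 39.5% higher in WT without arsenite, and 35.3% and 35.8% in WDM without arsenite. With arsenite the shares were 35.5% lower and 35.0% higher in WT, and 35.7% and 36.3% in WDM. The median log2 fold change of the 9 members was -1.85, -1.44, -1.75 and -1.80 in these comparisons, against 0.07, 0.02, 0.05 and 0.06 over all genes. In each comparison 8 members had all granule libraries below all matching cytosol libraries, as did 35.3% to 37.5% of all genes. All granule libraries lay above all cytosol libraries for 37.6% to 39.5% of genes, so lack of overlap was common.

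HK2, which phosphorylates glucose on entry, was counted at 85.4, 52.6 and 71.7 CPM in WT cytosol with tetracycline and at 96.2, 118.6 and 100.5 CPM in the matching granules. Every granule library was above every cytosol library there. The log2 fold change was 0.57 (SE 0.17, edgeR adjusted p 0.00424), and without the second cytosol library of that group it missed the threshold (adjusted p 0.0584). In WDM cells without arsenite the cytosol values were 84.9, 45.7 and 69.2 CPM and the granule values 71.0, 86.4 and 88.7 CPM. These overlapped, and the difference of 0.27 (SE 0.18, edgeR adjusted p 0.17) was not called, although without the first of those cytosol libraries it was 0.48 and called (edgeR adjusted p 0.0239), and without the second it was 0.04 (edgeR adjusted p 0.848). With arsenite HK2 stood at 84.5, 70.0 and 76.7 CPM in WT cytosol and at 132, 119.97 and 136 CPM in granules. In WDM it stood at 92.9, 82.0 and 73.9 CPM in cytosol and at 115, 141 and 121 CPM in granules. Neither pair overlapped, and the log2 fold changes were 0.74 (SE 0.17, edgeR adjusted p 0.000398) and 0.56 (SE 0.17, edgeR adjusted p 0.00478).

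GPI, which turns glucose-6-phosphate into fructose-6-phosphate, had the smallest loss from granules. WT cytosol with tetracycline held 490.3, 486 and 481 CPM and the granules 273, 345 and 274 CPM, with no overlap. With arsenite WT cytosol held 466, 444 and 446 CPM and granules 177, 225 and 246 CPM. In WDM the values were 501, 471 and 432 CPM in cytosol against 264, 316 and 310.1 CPM in granules without arsenite, and 441, 446 and 436 against 304, 317 and 326 CPM with it. The log2 fold changes were -0.72, -0.69, -1.07 and -0.52 for WT and WDM without arsenite, then WT and WDM with it (SE 0.14 in each). The weakest of these calls had an edgeR adjusted p of 0.00118.

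GAPDH, the enzyme that makes NADH in this pathway, was the most depleted member in 3 of the 4 comparisons. WT cytosol with tetracycline held 2067, 2546 and 2648 CPM and the granules 444, 446 and 427 CPM. With arsenite the cytosol held 2043, 2023 and 2081 CPM and the granules 184, 205 and 261 CPM. The log2 fold change was -2.47 (SE 0.21, edgeR adjusted p 1.1e-11) without arsenite and -3.24 (SE 0.21, edgeR adjusted p 9.89e-14) with it. In WDM the cytosol held 2398, 2497 and 1918 CPM and the granules 351, 704 and 690 CPM without arsenite. With arsenite the WDM cytosol held 1707, 1900 and 2033 CPM and the granules 203, 236 and 246 CPM. These gave -2.00 (SE 0.20) and -3.08 (SE 0.21), and no granule library reached the cytosol range in any comparison. With arsenite only 1.36% of all genes in WT and 1.87% in WDM had a lower fold change than GAPDH.

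TPI1, which interconverts the triose phosphates, changed by -2.42 in WT and -2.01 in WDM without arsenite, where it was level with GAPDH. With arsenite it changed by -2.12 and -2.09 (SE 0.20 in each), against -3.24 and -3.08 for GAPDH. Its level was 1117 ± 199 CPM (SD, n = 3) in WT cytosol with tetracycline and 210 ± 7.06 CPM in the granules, and 908 ± 47.7 against 210 ± 34.9 CPM with arsenite. In WDM cells it was 971 ± 147 against 246 ± 76.4 CPM and 797 ± 114 against 193 ± 24.7 CPM.

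PGK1, which makes the first ATP of the payoff phase, changed by -1.85, -1.44, -1.44 and -1.59 (SE 0.16 in each). Its WT levels were 718 ± 136 CPM in cytosol and 200.3 ± 12.2 CPM in granules without arsenite, and 588 ± 34.1 and 218 ± 25.7 CPM with it. PGAM1, which moves the phosphate, changed by -2.02, -1.75, -1.76 and -1.96 (SE 0.17 in each), from 586 ± 81.2 CPM in WT cytosol to 146 ± 15.4 CPM in granules without arsenite. LDHA changed by -1.86, -1.66, -1.50 and -1.80 (SE 0.17 in each), from 565 ± 27.7 CPM in WT cytosol to 157 ± 15.2 CPM in granules without arsenite. For these 3 genes no granule library reached the matching cytosol range in either line.

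ENO1 encodes the enzyme that makes phosphoenolpyruvate. WT cytosol with tetracycline held 2617, 3419 and 3591 CPM and the granules 943, 1049.5 and 888 CPM. With arsenite the cytosol held 2728, 2789.8 and 2879.8 CPM and the granules 580.5, 567 and 665 CPM. In WDM the cytosol held 2949, 3246 and 2381 CPM and the granules 707, 1360.2 and 1309 CPM without arsenite. With arsenite the WDM cytosol held 2185, 2589.6 and 2635 CPM and the granules 499, 556 and 567 CPM. No granule library reached the cytosol range. The log2 fold changes were -1.75 and -1.38 without arsenite and -2.22 and -2.23 with it, for WT and WDM (SE 0.20 in each).

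PKM, which makes ATP and pyruvate, changed by -1.27 and -1.12 without arsenite (SE 0.17 in each) and by -1.75 and -1.62 with it (SE 0.18 in each). WT cytosol with tetracycline held 1318, 1549.5 and 1619 CPM and the granules 601, 699 and 571 CPM. With arsenite the cytosol held 1275, 1226 and 1301 CPM and the granules 316, 363 and 454 CPM. The fractions did not overlap. For WDM the levels were 1320 ± 154 against 620.2 ± 147 CPM without arsenite and 1143 ± 89.9 against 383 ± 46.3 CPM with it.

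**Figure D2:**
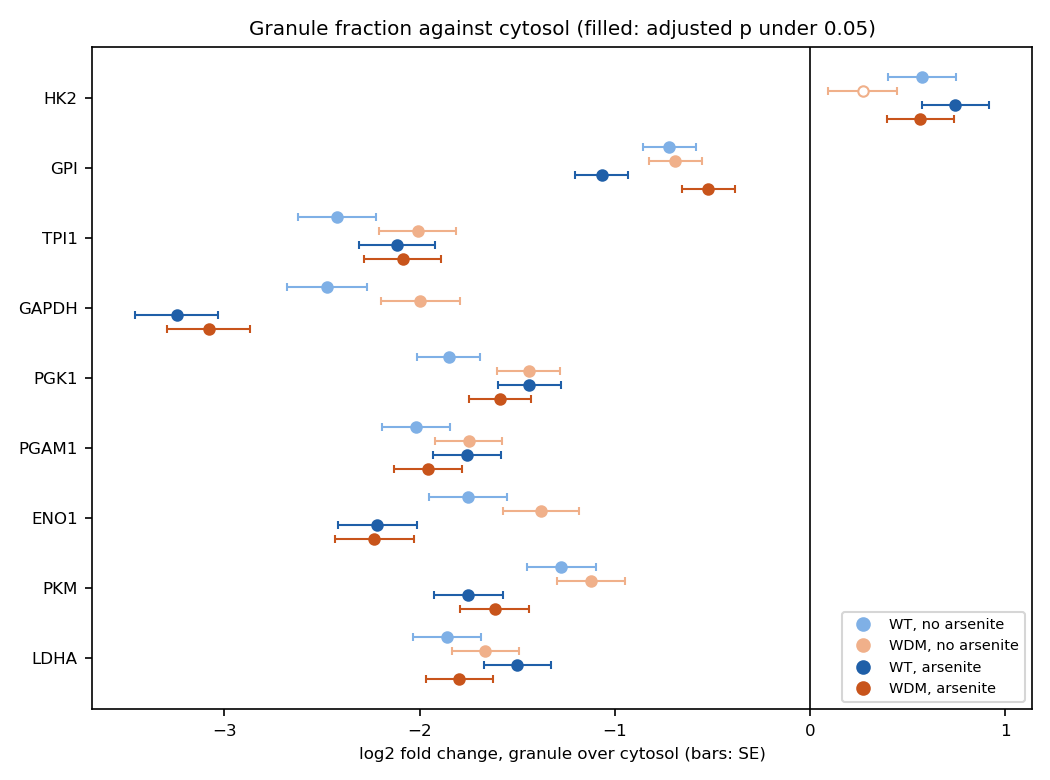
Log2 fold change of granule over cytosol for each counted member (points, with bars of 1 SE) in the 4 comparisons of line and arsenite, filled where the edgeR adjusted p was under 0.05. HK2 lies right of 0, with the WDM point without arsenite open at 0.27, and the other 8 lie left of 0, GAPDH with arsenite farthest at -3.24 in WT.

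Across genes, granule enrichment rose with annotated transcript length. The 8 depleted members lay below the median of protein-coding genes of similar annotated length in all 4 comparisons. Spearman's rho between the log2 fold change and MANE Select length was taken over 18092 genes, protein-coding and noncoding. It was 0.213 and 0.233 without arsenite (WT and WDM) and 0.354 and 0.287 with it. Over the 9 members it was 0.817, 0.80, 0.95 and 0.967. These are descriptions across genes that share libraries, and genes are not independent replicates. For protein-coding genes alone, the median in WT without arsenite ran from -2.04 at up to 1 kb to 0.871 above 6 kb. Among protein-coding genes with transcripts of 1 to 2 kb (2291 genes) the median log2 fold change with arsenite was -1.14 in WT and -1.07 in WDM. With arsenite 0.567% of them lay below GAPDH in WT and 1.66% in WDM, and without it 6.42% and 10.2%. For ENO1 these shares were 11.5% and 11.8% with arsenite and 26.9% and 36.0% without it. For TPI1 they were 14.2% and 15.1% with it and 7.33% and 9.69% without it, and for PGAM1 25.7% and 18.5%, then 17.1% and 18.6%. Among 2718 genes of 2 to 3 kb, 7.65% and 10.9% lay below PKM with arsenite and 24.2% and 23.8% without it. In that class 12.1% and 8.06% lay below LDHA with arsenite and 8.87% and 7.28% without it. PGK1 was low for its annotated length in all comparisons, and whether the cells used a shorter transcript was not tested. The 1701 genes of 4 to 5 kb had medians of 0.21 and 0.15 with arsenite. Of these genes 2.70% lay below PGK1 in WT and 2.23% in WDM. Without arsenite these shares were 2.35% and 2.53%. GPI, in the same class, had 5.53% of genes below it in WT with arsenite and 20.9% in WDM, and 20.0% and 15.8% without it. HK2 lay near the middle for its annotated length. Among 1205 genes of 5 to 6 kb, 63.6% lay below it in WT with arsenite and 59.3% in WDM. Without arsenite these shares were 58.2% and 48.6%. Density of T runs had almost no relation with enrichment over all genes, with a rho of -0.0224, 0.0218, 0.083 and -0.0229 in the 4 comparisons. Over the 9 members, which differ in length at the same time, it was 0.368, 0.326, 0.77 and 0.678.

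**Figure D3:**
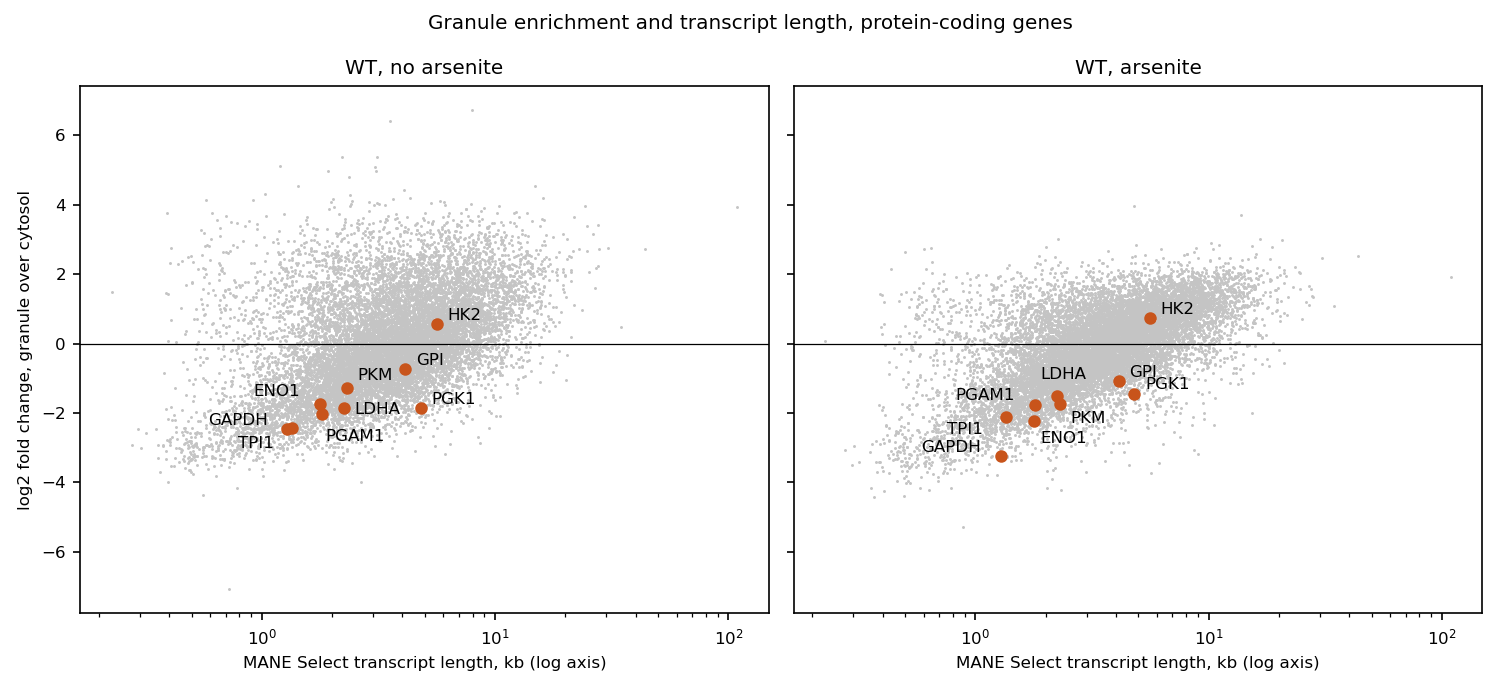
Log2 fold change of granule over cytosol against MANE Select transcript length in kb (log axis) for protein-coding genes (grey points) in WT cells without arsenite (left) and with it (right), members in orange. The cloud rises with length, HK2 lies inside it above 0, and PGK1 lies at its lower edge at -1.85 and -1.44.

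The second question was what arsenite did to the members within a fraction. In granules GAPDH, ENO1 and PKM fell and HK2 rose in both lines, while TPI1, PGK1, PGAM1, LDHA and GPI were not called in either. Of the 9 tested members 4 were called in each line (edgeR, adjusted p under 0.05), against 30.6% of all 18366 genes in WT granules and 36.3% in WDM granules. Arsenite libraries all lay below the others for 25.8% of all genes in WT granules and 26.4% in WDM granules. They all lay above for 17.9% and 20.7%. GPI in WT granules, though not called, also had all arsenite libraries below the others. GAPDH went from 444, 446 and 427 to 184, 205 and 261 CPM in WT granules, with no overlap and a log2 fold change of -0.92 (SE 0.20, edgeR adjusted p 0.00106). In WDM granules it went from 351, 704 and 690 to 203, 236 and 246 CPM, again with no overlap, and the change was -1.26 (SE 0.20, edgeR adjusted p 2.52e-05). ENO1 fell by 0.57 on the log2 scale in WT (SE 0.19, edgeR adjusted p 0.0279) and by 0.97 in WDM (SE 0.20, edgeR adjusted p 0.000379), its arsenite libraries all lying below the others in both lines. PKM fell by 0.62 in WT (SE 0.18, edgeR adjusted p 0.0112) and by 0.61 in WDM (SE 0.18, edgeR adjusted p 0.0102). Its groups did not overlap either. HK2 went from 96.2, 118.6 and 100.5 to 132, 119.97 and 136 CPM in WT, with the lowest arsenite library just above the highest of the others. The change was 0.40 (SE 0.15, edgeR adjusted p 0.0409). In WDM it went from 71.0, 86.4 and 88.7 to 115, 141 and 121 CPM, a change of 0.70 (SE 0.15, edgeR adjusted p 0.00071).

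These calls differed in how firmly they stood. GAPDH was called under every alternative run in both lines, as were HK2 and ENO1 in WDM. HK2 in WT was lost under 11 of 19 alternatives, ENO1 in WT under 4 and PKM under 2 in WT and 3 in WDM. Without the first WT library with arsenite, 1 member was called in WT granules, and without the first WDM library without arsenite, 8 were called in WDM granules. That WDM library held less of the 8 depleted members than the other libraries of its group (GAPDH at 351 against 690 and 704 CPM), and its mitochondrial sum was 1114 CPM against 3324 and 4070 CPM. The members that were not called had log2 changes of 0.10 (TPI1), 0.23 (PGK1), 0.10 (PGAM1), 0.14 (LDHA) and -0.36 (GPI) in WT. In WDM they had -0.27, -0.34, -0.39, -0.27 and 0.17, each with an SE of 0.16 to 0.18. A p that misses the threshold does not show that these genes did not change.

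In cytosol the same treatment left little that passed the test. LDHA was the only member called, in WT, where it went from 571, 535 and 589 to 487, 425 and 453 CPM with no overlap. The log2 fold change was -0.32 (SE 0.08, edgeR adjusted p 0.00756). In WDM it went from 611, 517 and 483 to 451, 467 and 463 CPM, also with no overlap, and -0.22 (SE 0.08, edgeR adjusted p 0.0517) was not called. Over all 16670 genes 29.0% were called in WT and 28.8% in WDM. GPI and PKM in WT, and PGK1 in WDM, also had all arsenite libraries below the others without being called. This held for 19.4% of all genes in WT and 17.2% in WDM. In WDM edgeR called 0 members and DESeq2 called 2, GAPDH and LDHA, and 5 members had an unadjusted p under 0.05. The point estimates of the 8 members other than HK2 were below 0 in both lines, between -0.08 and -0.32, and HK2 was at 0.13 in WT and 0.32 in WDM. These counts depended on single libraries. Without the first WT library with tetracycline 7 members were called in WT cytosol, and without the third WDM library with tetracycline 6 were called in WDM cytosol. Without the second WT library with arsenite none was called in WT cytosol. That first WT library stood apart from the others of its group, with GAPDH at 2067 against 2546 and 2648 CPM. Its nuclear RNAs summed to 518 CPM against 226 and 221 CPM.

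**Figure D4:**
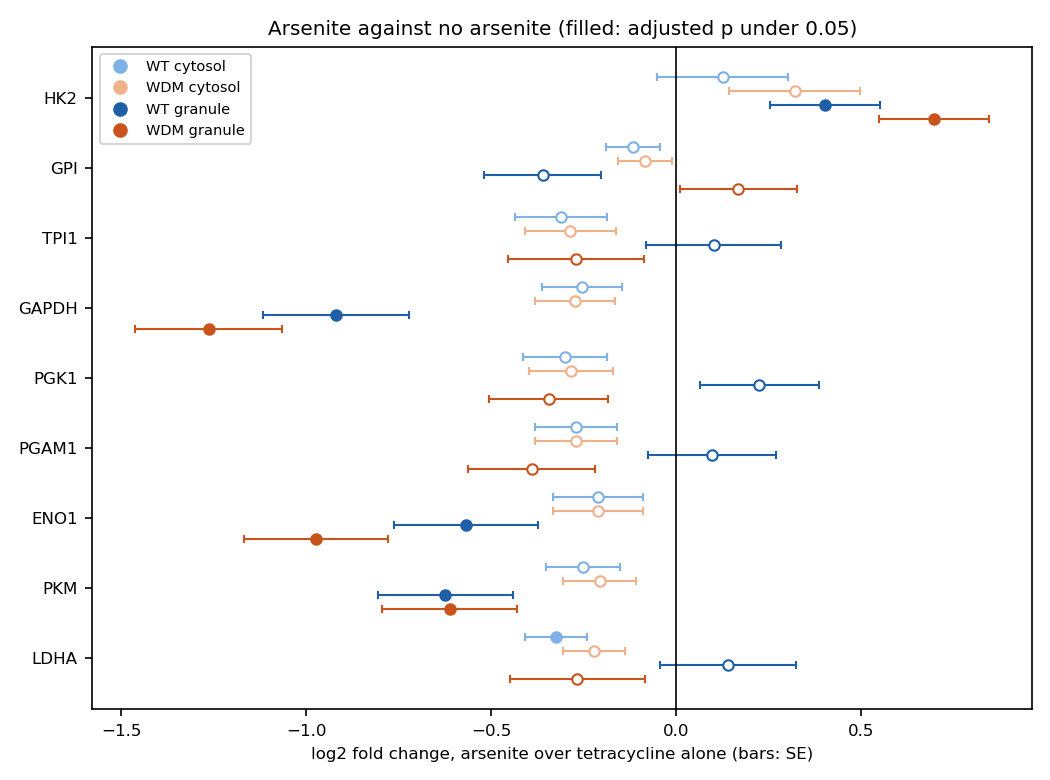
Log2 fold change of arsenite over tetracycline alone for each counted member in cytosol (light) and granules (dark), with bars of 1 SE, filled where the edgeR adjusted p was under 0.05. GAPDH, ENO1 and PKM in granules lie left of -0.5 and HK2 in granules right of 0, while LDHA in WT is the filled cytosol point, at -0.32.

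A test of the difference between those responses asked whether arsenite changed the division between the fractions. GAPDH became more depleted in both lines. The change of its log2 granule-to-cytosol ratio was -0.77 in WT (SE 0.28, edgeR adjusted p 0.0332) and -1.08 in WDM (SE 0.28, edgeR adjusted p 0.00517). ENO1 became more depleted in WDM, by -0.85 (SE 0.27, edgeR adjusted p 0.022), and in WT its change of -0.46 (SE 0.27, edgeR adjusted p 0.198) was not called. PKM was at -0.48 and -0.49 (SE 0.24 in each), not called. The other members lay between -0.35 and 0.41 in WT and between -0.21 and 0.30 in WDM. Called were 1 of 9 members in WT and 2 of 9 in WDM, against 31.4% and 24.2% of all genes, whose median change was -0.21 and -0.17. GAPDH in WT was lost under 11 of 31 alternatives (adjusted p up to 0.0915) and ENO1 in WDM under 6 (up to 0.0712), while GAPDH in WDM was called under all 31. In WT granules the mitochondrial sum moved in the same direction with arsenite as GAPDH did, from 2057 to 4175 CPM without it to 531 to 1351 CPM with it. In WDM granules its ranges overlapped (1114 to 4070 CPM without arsenite, 861 to 1500 CPM with it). The part of mitochondrial RNA in these values was not tested.

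Tetracycline alone and the line were compared last. With tetracycline edgeR and DESeq2 called 0 members in the cytosol of either line, with 0 in WT and 1 in WDM at an unadjusted p under 0.05. Over all genes edgeR called 5.31% in WT and 6.30% in WDM. The member estimates lay between -0.04 and 0.19 in WT and between -0.11 and 0.25 in WDM (SE 0.07 to 0.18), PGAM1 being the highest in both.

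Between the lines in cytosol edgeR and DESeq2 called 0 members, while 9.78% of all genes were called untreated, 12.6% with tetracycline and 10.4% with arsenite. In untreated cells 3 members had an unadjusted p under 0.05, and 0 in each of the other conditions. In untreated cells 7 of the 9 members had all WDM libraries below all WT libraries, as did 21.7% of the 16670 genes tested. ENO1 stood at 3099.5, 3384 and 3377 CPM in WT and at 2516, 2597 and 2833 CPM in WDM, a log2 difference of -0.31 (SE 0.12, edgeR adjusted p 0.116). TPI1 stood at 988, 1060.4 and 1051 against 865, 853 and 861 CPM, and PKM at 1318, 1449 and 1498 against 1138, 1146 and 1241 CPM. A fit to these 6 libraries alone called 7 members, HK2, TPI1, GAPDH, PGK1, PGAM1, ENO1 and PKM, and it called 36.0% of the 15158 genes it tested (5463 genes, against 1631 in the fit to all 18 cytosol libraries). GPI overlapped between the lines, at 437 to 495 CPM in WT and 436 to 466 in WDM, and so did LDHA, at 515 to 523 and 515 to 542 CPM. With tetracycline all 9 estimates were below 0, between -0.22 and -0.05, and every pair of groups overlapped. With arsenite the estimates lay between -0.21 and 0.13, with HK2 (0.13) and LDHA (0.03) above 0. PGK1, ENO1 and PKM had all WDM libraries below all WT libraries there, as did 15.3% of all genes tested.

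In granules edgeR called 0 members between the lines without arsenite, as did DESeq2, with 1 at an unadjusted p under 0.05. With arsenite 1 was called, GPI, and 5.55% and 7.95% of all genes were called in these comparisons. GPI held 177, 225 and 246 CPM in WT granules with arsenite and 304, 317 and 326 CPM in WDM granules, with no overlap. The log2 difference was 0.52 (SE 0.16, edgeR adjusted p 0.0401), and it was lost in 8 of the 12 fits that left out a library, with an adjusted p of up to 0.247 over all alternatives. Whether this line difference itself differed between conditions was tested too: the WDM minus WT difference in the arsenite response of granule GPI was 0.53 (SE 0.22, edgeR adjusted p 0.334).

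For none of the 5 differences between the lines in a response or in granule enrichment was a member called by edgeR or DESeq2. At an unadjusted p under 0.05 there were 0 members for enrichment without arsenite, 1 for enrichment with it, 0 for the arsenite response in cytosol, 2 for that in granules and 0 for the tetracycline response. Few genes of any kind were called: 0.00551% for enrichment without arsenite, 0.00551% with it, 0.00% for the arsenite response in cytosol, 0.00% in granules and 0.0180% for the tetracycline response. DESeq2 called 0 genes for both arsenite responses, and 331 genes in cytosol and 2329 in granules had an unadjusted p under 0.05. The member estimates reached 0.55 for GPI (enrichment with arsenite, SE 0.19) and -0.57 for PGK1 (arsenite response in granules, SE 0.23), and differences of that size between the lines did not pass the test here.

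The rest of the pathway was read from a list of 35 other genes of glucose uptake, glycolysis and lactate handling, of which 25 could be tested across fractions. In each of the 4 comparisons 14 of these were called lower in granules, and 12 genes were called lower in all 4. In each line 6 were called higher without arsenite and 7 with it, and 6 genes were called higher in all 4 comparisons. Of all 18141 genes tested, 35.3% to 36.2% were called lower and 35.0% to 39.5% higher in these comparisons. The medians of the 25 genes were -0.56 and -0.52 without arsenite and -0.56 and -0.51 with it (WT and WDM). Those of all genes were 0.07 and 0.02, then 0.05 and 0.06. HK1, the housekeeping hexokinase, was lower, at -0.51 and -0.51 without arsenite and -0.91 and -0.72 with it, while the hexokinase HK3 was called higher on few reads. The phosphofructokinase subunits PFKL, PFKM and PFKP were lower in all 4 (-0.57 to -1.39).

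Among the lower genes of all the lists, BSG (the chaperone of lactate transporters), BNIP3 (a mitophagy receptor) and TALDO1 (transaldolase of the pentose phosphate pathway) had the lowest ratios called in both lines without arsenite. BSG stood at -2.46 in WT and -2.13 in WDM, BNIP3 at -2.13 and -1.90, and TALDO1 at -2.13 and -1.78. With arsenite TKT (transketolase) joined BNIP3 and TALDO1, at -2.19 and -1.79. TKT also became more depleted with arsenite in both lines, by -0.79 and -0.66 (edgeR adjusted p 0.00292 and 0.0137). Of 7 pentose phosphate genes 6 were lower in each of the 4 comparisons and RPIA was not called. Of 12 genes that hypoxia is known to induce, 11 were tested. Without arsenite 9 were lower and 1, KDM3A, was higher in each line, and with it 7 were lower in each line, 2 were higher in WT and 0 in WDM. For both lists the shares over all genes were 35.3% to 36.2% lower and 35.0% to 39.5% higher.

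Among the higher genes the largest ratios rested on few reads. HK3 had 0 counts in the 3 WT cytosol libraries with tetracycline, which allows up to 3 counts in each, and 1, 2 and 7 in the granules, so no fold is given. With arsenite it had 5 to 13 counts in WT cytosol and 21 to 53 in granules, and 8 to 16 and 57 to 76 in WDM. LDHB had at most 5 counts in a cytosol library with tetracycline, and 76.5% of its MANE Select transcript is shared with another gene on the same strand. How reads in shared exons were assigned is not given, so its calls as higher may not describe its mRNA. PFKFB1 had 3 to 15 counts in those cytosol libraries and 17 to 104 in the granules. PDK3, a kinase that shuts off pyruvate dehydrogenase, was well counted. It was at 131 ± 11.6 CPM in WT cytosol and 449.7 ± 104 CPM in granules with arsenite, a log2 fold change of 1.78 (edgeR adjusted p 3.73e-09), and at 1.18 in WDM. Its change with arsenite was 1.32 in WT (SE 0.27, edgeR adjusted p 0.000584) and was not called in WDM (0.64, edgeR adjusted p 0.0806).

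Among the glucose and lactate carriers, SLC2A1 became less depleted with arsenite in both lines, and this change was called under all 31 alternatives in each. SLC2A1, the glucose transporter GLUT1, which was chosen here after its values were seen, was at -1.49 and -1.26 without arsenite and at -0.56 and -0.36 with it. The WDM value with arsenite was lost under 11 of 31 alternatives (adjusted p up to 0.271). Its level in granules went from 52.8 ± 3.78 to 77.4 ± 8.29 CPM in WT and from 50.2 ± 14.3 to 82.4 ± 12.7 CPM in WDM. The change of the ratio was 0.93 in WT (SE 0.23, edgeR adjusted p 0.00303) and 0.90 in WDM (SE 0.23, edgeR adjusted p 0.00554). BSG changed by 0.75 and 0.68 (edgeR adjusted p 0.0226 and 0.0434), and the call was lost under 3 of 31 alternatives in WT and 11 of 31 in WDM. SLC16A1, a lactate transporter, and SLC2A3, the glucose transporter GLUT3, changed by 1.07 and 1.11 in WT (edgeR adjusted p 0.00172 and 0.00156), and their changes of 0.27 and 0.58 in WDM were not called (edgeR adjusted p 0.452 and 0.066). SLC16A7, another lactate transporter, changed by 0.49 in WT and -0.37 in WDM (edgeR adjusted p 0.113 and 0.254), not called. In cytosol with arsenite BSG fell by 0.51 in both lines, SLC16A1 by 0.57 and 0.43, and SLC2A3 by 0.45 and 0.43 on the log2 scale (WT and WDM). Of the 24 genes of the glucose list tested in cytosol, 7 were lower and 1 was higher in WT, and 5 and 2 in WDM. By comparison, 29.0% of all 16670 genes were called in WT and 28.8% in WDM, counting either direction. ADM, a hypoxia-induced peptide, rose in cytosol in both lines, by 0.95 (edgeR adjusted p 0.000126) and 1.40 (edgeR adjusted p 6.42e-06). HK3 went from 0 to 5, 10 and 13 counts in WT cytosol and from at most 1 to 8, 11 and 16 counts in WDM cytosol.

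**Figure D5:**
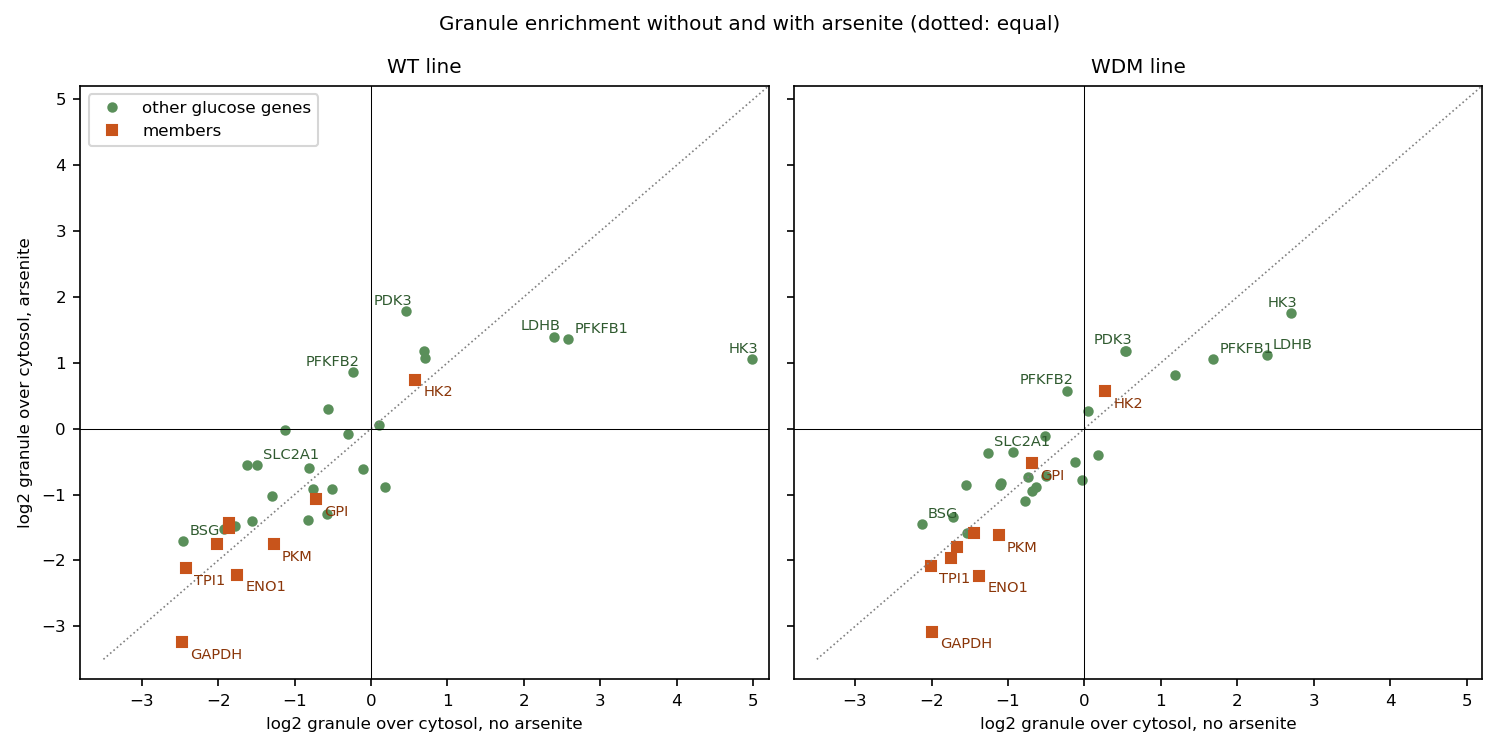
Log2 granule over cytosol with arsenite (vertical) against the value without it (horizontal) for the 25 tested glucose genes (green circles) and the 9 members (orange squares) in WT and WDM; the dotted line marks equal values, and the groups on the axes share no library. GAPDH and ENO1 lie below the line (GAPDH at -3.24 against -2.47 in WT), and SLC2A1 and PDK3 lie above it (PDK3 at 1.78 against 0.46 in WT); HK3, LDHB and PFKFB1 rest on few reads.

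Genes of like pattern were looked for by correlation. Over the 30 libraries the log2 CPM averaged over the 9 counted members had Pearson correlations among the highest of 11502 genes with NDUFB10 (0.996), PSMB6 (0.995), PHB (0.995) and FKBP4 (0.995). HK2 was matched instead by PPRC1 (0.943), EP300 (0.942), SUPT6H (0.941), ANKFY1 (0.937) and SEC24D (0.937). The median correlation of GAPDH with the 7 other depleted members was 0.972 over all libraries, 0.903 over the 18 cytosol libraries and 0.665 over the 12 granule libraries. For GPI these medians were 0.906, 0.611 and 0.313. For HK2 against the 8 depleted members they were -0.782, -0.441 and -0.17. These are descriptions over libraries that fall into separate groups, with no test.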

How the data were processed

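The authors deposited 1 table of raw counts, whole reads assigned to each of 60664 genes in the 30 libraries, without pooling. Per the labels' protocols, libraries were TruSeq Stranded Total RNA after Ribo-Zero Gold; per the submitters' processing notes, Trimmomatic, STAR, Picard and featureCounts and the GRCh38 build were used. The strand and overlap settings of the counting are not given in the sources used here. Of the identifiers, 60463 were found in GENCODE release 44, and 56693 of them had an identical start and end.

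Differences were tested with edgeR 4.0.16 (R 4.3.3): filterByExpr (minimum count 10, minimum total 15), TMM factors, robust quasi-likelihood F-test, Benjamini-Hochberg adjustment over all genes tested, and a call at an adjusted p under 0.05. SEs were taken from the log2 fold change and the F statistic. Cytosol comparisons used 18 libraries (16670 genes), granule comparisons 12 (18366) and comparisons across fractions 24 (18141). There were 15 comparisons between groups and 7 of differences. On simulated counts for the comparison of granule with cytosol in WT without arsenite (17492 genes), 28.4% of 1.5-fold, 91.0% of 2-fold and 98.5% of 4-fold changes were recovered. For arsenite in WT cytosol (16407 genes) these were 65.7%, 95.5% and 100%, and for arsenite in WT granules (18046 genes) 32.8%, 91.0% and 100%. Unchanged genes called were 9, 16 and 8 in these simulations. Only 66 or 67 genes were changed at each fold, balanced between up and down. In the data 13731 of 18141 genes were called in the first of these comparisons, a setting that the simulation does not cover.

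A count of 0 allows up to 3 counts, or 0.103 to 0.511 CPM by library; this covers counting error only. No replicate pair agreed within counting noise (chi-square per degree of freedom 1.63 to 40.7), so every group kept 3 libraries. Replicate numbers were taken to pair the libraries where every same-numbered pair deviated together with a correlation over 0.1. This held in 2 of the 15 comparisons between groups: granule against cytosol in WDM with arsenite, and arsenite in WDM granules. In the latter, replicates 2 and 3 correlated better with a differently numbered library (0.128 against 0.164, and 0.283 against 0.317). For granule against cytosol in WT with arsenite every same-numbered pair was the best, but the lowest was 0.0766. The reported tests used no pairing in any comparison, and the replicate block was run as an alternative.

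Members, lists and tests were chosen with earlier results of these data known. All 10 members were named in every comparison; other genes were named by being called in both lines in the same direction, up to 3 higher and 3 lower per treatment, and as the 5 most correlated with the member mean or with HK2 (mean of at least 5 CPM). Some genes that these rules or the marker lists name are not reported here. The alternatives changed the scaling (RLE factors, or library size alone), dropped the filter on low counts, added the replicate number as a block, used DESeq2 1.42.0, fitted only the groups compared or only protein-coding nuclear genes, and omitted every library once. Other lengths were tried after seeing the data: MANE Select against longest transcript, and total exon length. Figures were drawn with matplotlib 3.10.9.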

Additional observations from a re-analysis of the deposited data

Results flagged for a closer look

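Several genes responded to arsenite differently in granules and in cytosol by the test of that difference itself (edgeR, adjusted over all genes). Such calls were common: this test called 31.4% of all genes in WT and 24.2% in WDM. The log2 change of the granule-to-cytosol ratio was -0.77 for GAPDH in WT and -1.08 in WDM, and -0.85 for ENO1 in WDM. It was -0.79 for TKT in WT and -0.66 in WDM. It was positive for SLC2A1 (0.93 in WT and 0.90 in WDM), BSG (0.75 and 0.68), SLC2A3 (1.11 in WT), SLC16A1 (1.07 in WT) and PDK3 (1.32 in WT). The BSG call was lost under 3 of 31 alternatives in WT and 11 in WDM, and that of TKT under 1 and 2. Those of GAPDH in WT and ENO1 in WDM were also lost under some alternatives, as given above.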

How the results depend on the processing

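Counts of called members in the 4 comparisons of granule with cytosol stayed within 1.5 times the reported count under every alternative run. With 1 library left out they were 8 to 9 of 9 in WT and in WDM without arsenite and 9 to 9 in both lines with it. Arsenite in WT cytosol, reported as 1 called member, gave 0 with library size alone, 3 with no low-count filter and 0 to 7 with 1 library left out. In WDM cytosol, reported as 0, no low-count filter gave 4, DESeq2 gave 2 and leaving out 1 library gave 0 to 6. The replicate block gave 5 in each of these cytosol comparisons, where the numbers do not pair the libraries, and moved no other count of members by over 1.5 times. In granules, leaving out 1 library gave 1 to 4 in WT and 3 to 8 in WDM, each reported as 4. Between the lines, only the groups compared gave 7 in untreated cytosol against 0 (5463 of all genes against 1631), and leaving out 1 library gave 0 to 2 there, 0 to 4 in cytosol with tetracycline, 0 to 1 in granules without arsenite and 0 to 1 with it. For the change of enrichment with arsenite, leaving out 1 library gave 0 to 1 in WT and 1 to 3 in WDM, where only the groups compared gave 1 against 2. The other counts stayed at 0. No called value of a member or named gene changed sign. Scaling by library size alone shifted the all-gene median for arsenite in WT cytosol from -0.02 to 0.11. Except where the construction of an alternative shows it (fewer samples, fewer genes tested), the cause of these shifts was not tested. Low counts limit HK3, LDHB and PFKFB1, and ALDOA was not measured. LDHB is limited further by the 76.5% of its MANE Select transcript shared with another gene on the same strand.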
